A study of Solanum tuberosum with 8 samples.

Results

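Leaves of the potato (*Solanum tuberosum* cv Solara) line *Stpfld252* were compared after 3 days of water withdrawal and under continued watering. The samples were chosen by their labels, and they make up 4 of the 8 arrays of the series, 2 for drought and 2 for control. The other 4 arrays hold wild-type (WT) sibling leaves under the same treatments and serve here only to show where the response of *Stpfld252* differed. *Stpfld252* carries the *fld* gene of a cyanobacterium (*Anabaena*), which encodes the electron carrier flavodoxin (Fld), with a pea transit peptide that directs the protein to plastids and a viral promoter that is active throughout the plant. All transgenic samples come from this 1 line, so any other feature of the line cannot be told apart from Fld. Plants of both genotypes were raised from tuber slices in 3-L pots for 4 weeks at 400 µmol photons per square metre and second, a 16-h photoperiod, 25 °C by day and 22 °C by night, and 80% relative humidity. Young, fully expanded leaves of 10 plants per genotype and treatment were pooled, and 2 pools per group were hybridized. Since RNA came from whole pooled leaves, fewer cells of a type and less RNA per cell cannot be told apart.

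Plants have lost flavodoxin, which in cyanobacteria and algae stands in for the iron-sulfur protein ferredoxin when stress lowers the latter, and in chloroplasts it can take electrons from photosystem I. When the soil dries, leaves accumulate abscisic acid (ABA), whose receptors inactivate protein phosphatases of type 2C and so release kinases that turn on protective genes. Leaf growth slows early in this response, and genes of cell expansion and photosynthesis are commonly turned down.

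Array probes are given here by name, and their own sequences were not used. The sequences shown are those of primers used for RT-PCR of the same transcripts, chosen because the results turn on them: GAST1 gave the largest decrease of all tested probes, ATHB7 was induced, ACO1 was repressed, and GBSSI was not called. All are written 5′ to 3′, and they are not placed on a genome here.
GAST1 forward: gctgtgcaaagtgtctgtgtgt
GAST1 reverse: agatgatcatgggcactttggg
ATHB7 forward: agcatgaatccctcctcatcca
ATHB7 reverse: ctgctgtcttcacacaaagcca
ACO1 forward: tcgttctataatccggggag
ACO1 reverse: cttggaatttgagacctgca
GBSSI forward: tggcaagtggagcgatttcttc
GBSSI reverse: acctgccaagaaatgggagaca

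Each array held 42034 potato probes and 153 negative control spots, and 0 spots were saturated. Between 77.8% and 80.7% of probes on the 4 *Stpfld252* arrays carried the scanner software's flag for a signal well above background. Replicate arrays differed by an SD of 0.122 on the log2 scale in the control and 0.151 under drought. Both drought arrays of *Stpfld252* lay on 1 slide and both control arrays on another, as in WT, so an effect of the slide cannot be told apart from that of drought. The slides also differed in raw brightness for this line, with median signals of 187.5 and 189 on the drought arrays and 226 and 236 on the control arrays, and all 10 added spike-in probes moved the same way, by −0.01 to −0.47 on the log2 scale before normalization. The part of this shift in the results was not tested beyond the scalings described at the end. The probes of the light reactions (108) and the Calvin cycle (32) were all well above background on the 4 arrays. This cannot show leaf identity, since the authors had already called these probes on the same arrays. All 59 probes of the proteasome, which is not particular to leaves, were above background as well. Of 8 probes for patatin, the storage protein of tubers, all 8 were also above background on the 4 arrays, 3 of them repressed by drought and 5 not called.

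Of 36250 probes tested, drought changed 4847 in *Stpfld252* leaves (13.4% of the probes tested) by more than 2-fold at a Benjamini-Hochberg adjusted p under 0.05 in limma's test. Induced probes numbered 2033 (5.61%) and repressed probes 2814 (7.76%), so 41.9% of the calls were increases. With the median of each array as the scale in place of quantile normalization, that share was 55.4%, as the median change of all probes moved from 0.05 to 0.20. Decreases reached further than increases. Among induced probes, 382 changed by over 4-fold, 116 by over 8-fold and 36 by over 16-fold, while among repressed probes 729, 231 and 72 did so. The median change of induced probes was 1.35 on the log2 scale and that of repressed probes −1.50. With each contig number counted a single time, the induced probes stood for 1872 contigs or single sequences and the repressed ones for 2555. Of the induced probes 87, and of the repressed probes 191, fell short of the scanner's flag on both arrays of 1 of the treatments.

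**Figure D1:**
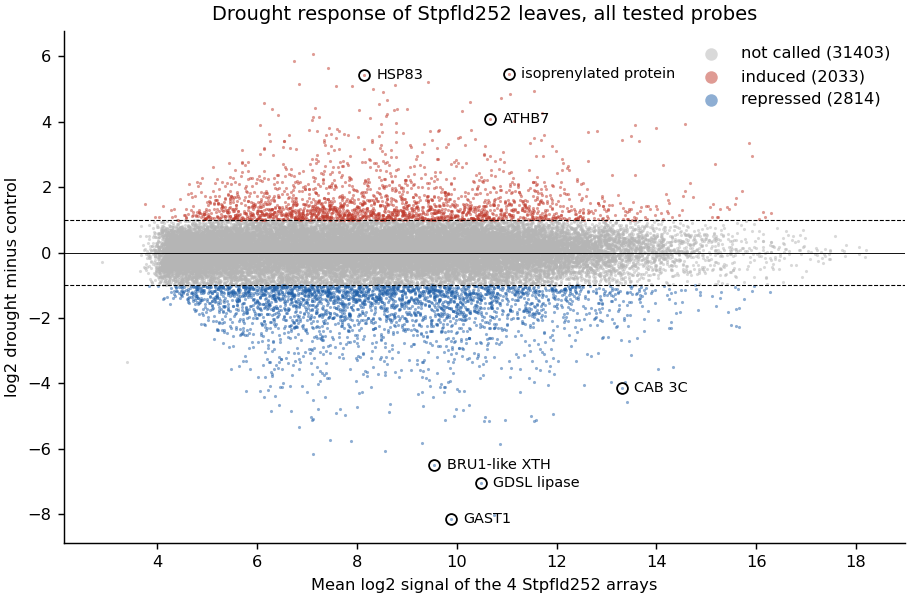
Each point is 1 of the 36250 tested probes, with its mean log2 signal over the 4 *Stpfld252* arrays on the x axis and its log2 change (drought minus control) on the y axis; dashed lines mark 2-fold. The 2033 induced probes (red) include HSP83 and the isoprenylated protein at 5.42 and 5.46, whereas the 2814 repressed probes (blue) reach −8.16 at GAST1.

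The 10 largest increases among described probes that were well above background on all 4 arrays, counting each contig number once, included 4 heat shock proteins.  The probe bf_mxlfxxxx_0005g01.t3m.scf, described as a metal-binding isoprenylated protein, read 8.29 and 8.33 (log2 signal) on the control arrays and 13.73 and 13.82 on the drought arrays, an increase of 5.46 (SE 0.08, adjusted p = 2.3e-08 in limma's test). MICRO.5626.C1, heat shock protein 83, a chaperone of the HSP90 family, went from 5.51 and 5.36 to 10.89 and 10.82, an increase of 5.42 (SE 0.09). In both, the gap between treatments was many times that between replicate arrays. MICRO.14952.C1, similar to MtN3, a family that includes sugar exporters, rose from 5.82 and 5.84 to 10.86 and 10.80. A probe for a CCCH-type zinc finger protein (MICRO.6392.C2), a class that can bind RNA, rose by 4.94 (SE 0.14), and 1 for a serine protease inhibitor (bf_arrayxxx_0017a10.t7m.scf) by 4.41 (SE 0.13). MICRO.16759.C1, a further isoprenylated protein, and MICRO.295.C2, a probable oxidoreductase, rose by 4.37 and 4.24. Groups that did not overlap were a condition for choosing these probes. Non-overlap is also the rule on these arrays, since 79.9% of all tested probes had drought and control arrays that did not overlap.

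By the same rule, 6 of the 10 largest decreases were enzymes that modify the cell wall. GAST1 (MICRO.11045.C2), a small cysteine-rich protein first known as a gibberellin-stimulated transcript of tomato, read 14.00 and 13.92 on the control arrays and 5.98 and 5.63 on the drought arrays, a decrease of 8.16 on the log2 scale or 285-fold (SE 0.12, adjusted p = 2.3e-08 in limma's test). The GDSL-family lipase-like probe MICRO.6475.C2 went from 14.01 and 14.00 to 6.94 and 6.97. MICRO.6399.C1, similar to the brassinosteroid-regulated BRU1 of soybean, a xyloglucan endotransglucosylase/hydrolase (XTH) that cuts and rejoins wall polymers, fell by 6.48 (SE 0.12), from 12.90 and 12.67 to 6.42 and 6.21. The drought arrays were low together in all 3 genes. A further 3 of the 10 strongest decreases were XTH probes, MICRO.14995.C1 with −5.84, cSTB47C24TH with −5.72 and MICRO.3035.C2 with −5.16. Both pectin methylesterase probes among them, MICRO.106.C2 and STMGF63TV, changed by −5.15 and −5.13, and the remaining 2 were a glucosyltransferase (STMIA73TH, −5.75) and a leucine-rich repeat protein (MICRO.4697.C1, −5.08). On the drought arrays cSTB47C24TH read 4.56 and 4.63, close to the 95th percentile of the negative controls (4.17 and 4.23).

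**Figure D2:**
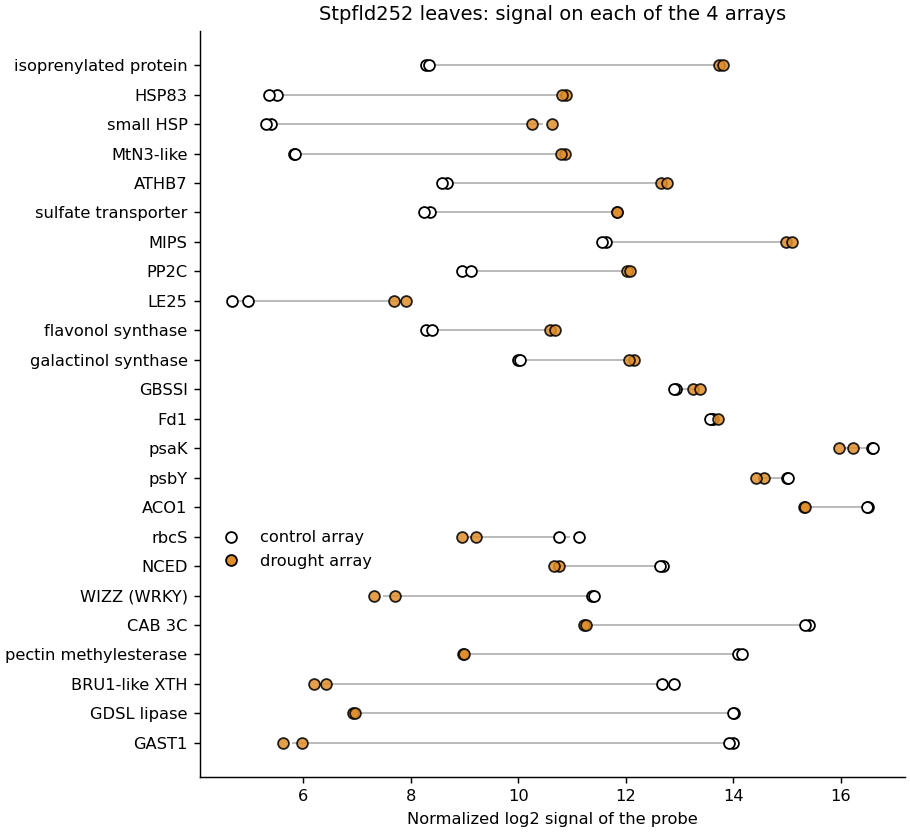
Normalized log2 signal (x axis) of 24 described probes on the 2 control arrays (open) and the 2 drought arrays (filled) of *Stpfld252*, with a line joining the group means. Replicate arrays lie close together, and drought moves GAST1 from 14.00 and 13.92 to 5.98 and 5.63, whereas the points of Fd1 and of GBSSI stay within 1 log2 unit.

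Gene names and functional (MapMan) categories came from the study's supplementary tables, which describe 5217 probes that the authors had called in 1 comparison or another on these same arrays, and of which 3 tables were read only in part. They describe 62.8% of the probes called here and 6.92% of those not called. The share of a list that was called is therefore raised by the choice of its probes and is a description, which the background of 5.61% induced and 7.76% repressed cannot be set against as a test.

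**Figure D3:**
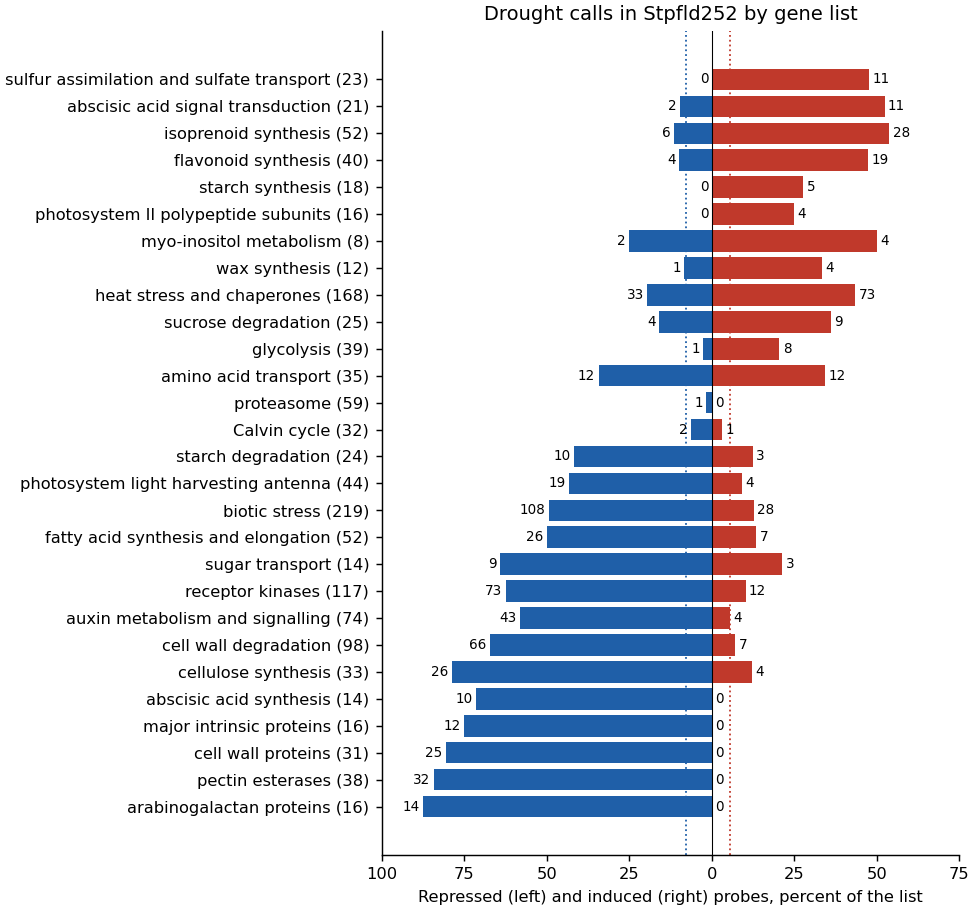
Percent of each list's tested probes (number in brackets) that drought induced (red, right) or repressed (blue, left) in *Stpfld252*, with the number of probes at each bar; dotted lines mark the 5.61% and 7.76% over all probes. Arabinogalactan proteins (14 repressed, 0 induced) and pectin esterases (32 and 0) stand at the bottom, and sulfur (11 induced, 0 repressed) and ABA signal transduction (11 and 2) at the top.

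Of 40 probes for ABA metabolism and signalling, 13 were induced and 13 repressed in *Stpfld252* (median 0.37). Narrower lists for synthesis and signalling, added after values were seen, were called in different directions. Their contrast is therefore a description only. Of the 14 probes for ABA synthesis and breakdown, drought repressed 10 and induced 0 in *Stpfld252*, with a median log2 change of −1.26, whereas of the 21 probes for ABA signal transduction it induced 11 and repressed 2, with a median of 1.07 (the median of all tested probes was 0.05). With a normexp offset of 50 these counts were smaller, at 5 repressed for synthesis and 8 induced for signalling. The strongest decrease in the synthesis list was at bf_mxflxxxx_0012d12.t3m.scf, a 9-cis-epoxycarotenoid dioxygenase (NCED), the enzyme that commits carotenoids to ABA synthesis, which read 12.70 and 12.64 in the control and 10.76 and 10.67 under drought (−1.95, SE 0.08). Both drought arrays were thus well below both control arrays. A protein phosphatase 2C (bf_acdaxxxx_0058e12.t3m.scf), of the class that ABA receptors inactivate, rose from 8.96 and 9.12 to 12.03 and 12.08 (3.01, SE 0.12). ATHB7 (bf_ivrootxx_0045h05.t3m.scf), a homeodomain-leucine zipper transcription factor that ABA and drought induce in *Arabidopsis*, rose from 8.68 and 8.59 to 12.66 and 12.77, an increase of 4.08 (SE 0.08, adjusted p = 3.9e-08). These increases were nevertheless smaller than those in WT. The WT change at the phosphatase was 8.12, a difference of the responses of −5.11 (adjusted p = 1.2e-06 in limma's test), and at ATHB7 it was 7.39, a difference of −3.31 (adjusted p = 1.5e-06). At the phosphatase the WT arrays read 6.01 and 5.69 in the control and 13.99 and 13.96 under drought. The lines thus already differed there in watered leaves. Of the 21 signalling probes, the difference was past the same limits upwards for 4 and downwards for 9, where 5.82% and 5.97% of all probes passed.

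Heat stress and chaperones, a long list, held the most induced probes by count. By share it stood at 43.5%, below isoprenoid synthesis (53.8%) and other shorter lists. Of 168 probes listed under heat stress, 73 were induced and 33 repressed, with a median of 0.75 and changes from −3.43 to 5.42. The families, sorted by description after their values were known, did not move alike. Of 17 probes for small heat shock proteins, which keep unfolding proteins from aggregating, 14 were induced and 0 repressed (median 1.74). Among 18 probes for the 70-kDa heat shock proteins and their cognates, ATP-driven folding chaperones, 12 were induced and 0 repressed (median 2.46), whereas of 26 probes for their DnaJ partners 7 were induced and 12 repressed (median −0.87). The small heat shock protein probe MICRO.15057.C1 rose from 5.40 and 5.31 to 10.26 and 10.64, so that the drought arrays lay further apart from each other than the control arrays. The cognate Hsc70 (MICRO.2037.C4) rose by 4.84 (SE 0.10) and a heat shock protein 70 (MICRO.14654.C1) by 4.72 (SE 0.08), while the DnaJ probe MICRO.8544.C3 fell by 2.82 (SE 0.08). In WT, all 17 small heat shock protein probes were induced, and the response was lower in *Stpfld252* past the limits for 13 of the 17 and for 12 of the 18 probes of the 70-kDa family. Of 16 probes for heat shock transcription factors, which turn such genes on, only 2 were induced and 7 repressed, with an increase of 2.28 (SE 0.10) at MICRO.7407.C1, similar to HSFA9 of sunflower.

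Genes for protective solutes and proteins changed in both directions. Myo-inositol-1-phosphate synthase (MIPS, bf_arrayxxx_0082g09.t3m.scf), which makes the precursor of inositol and galactinol, rose from 11.63 and 11.56 to 14.98 and 15.09 (3.44, SE 0.09). Galactinol synthase (MICRO.7446.C2), the first step towards raffinose, rose from 9.99 and 10.04 to 12.15 and 12.06 (2.09, SE 0.07), while its WT change was 0.41 and the difference of the responses 1.67 (adjusted p = 1.5e-05 in limma's test). STMHZ14TV, similar to seed imbibition proteins, some of which break down or build raffinose sugars, fell from 13.56 and 13.54 to 10.36 and 10.29 (−3.22, SE 0.11), with a WT change of 0.08. Over the 15 raffinose probes 4 were induced and 3 repressed (median 0.05). The response was lower in *Stpfld252* than in WT past the limits for 9 of them and higher for 2. The raffinose median has no settled sign, since it was 0.35 without drought replicate 1 of *Stpfld252*, −0.25 without drought replicate 2, −0.02 without control replicate 2 and −0.09 with the scanner's processed signal. Of 19 trehalose probes 2 were induced and 6 repressed, among the former a trehalose-6-phosphate synthase-like protein (MICRO.7939.C1, 1.85, SE 0.08). LE25 (SSBT003F21x.scf), a late embryogenesis abundant (LEA) protein of the kind that shields proteins in drying cells, rose by 2.98 (SE 0.28), from 4.97 and 4.68 to 7.92 and 7.69. In WT the same probe rose by 10.11, which left a difference of −7.13 (adjusted p = 9.5e-06), although only 1 of the 2 WT control arrays was well above background. Another LEA protein (MICRO.1825.C4) fell by 2.16 (SE 0.13), and over the 23 LEA probes 7 were induced and 5 repressed, with a median of −0.25 that moved between −0.33 and 0.09 with the scaling.

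Photosynthesis genes of *Stpfld252* were called in both directions. Of all 108 probes for the light reactions, drought induced 18 and repressed 27 (median −0.46). The largest increase was at a probe described as an ATPase beta subunit (bf_mxflxxxx_0005c10.t3m.scf, 2.75, SE 0.07). Medians were negative in the antenna and in both photosystems, and among these lists most calls lay in the antenna. The photosystem lists were added after values were seen. Of 44 probes for light-harvesting antenna proteins, which bind chlorophyll and feed the photosystems, drought repressed 19 and induced 4 (median −0.68). Of 16 probes for photosystem II subunits it repressed 0 and induced 4 (median −0.47), and of 14 probes for photosystem I subunits it repressed 1 and induced 1 (median −0.52). The strongest decrease was at the chlorophyll a-b binding protein 3C (MICRO.331.C89), which fell from 15.41 and 15.34 to 11.22 and 11.25 (−4.14, SE 0.08). The array probes of subunits that the study also chose for RT-PCR stayed within 2-fold. The photosystem I subunit psaK (MICRO.1823.C4) read 16.57 and 16.59 in the control and 15.96 and 16.22 under drought, and the photosystem II protein psbY (MICRO.5278.C1) 15.01 and 15.02 against 14.58 and 14.42. Ferredoxin 1 (Fd1, MICRO.11295.C1), the carrier whose place Fld can take, read 13.62 and 13.57 in the control and 13.62 and 13.72 under drought, a change of 0.07 (SE 0.09, adjusted p = 0.50), so that the groups differed by less than their spread. Its WT change was −1.10, and the difference of the responses was 1.17 (adjusted p = 0.00025 in limma's test), a value that stayed positive but no longer passed the limits with median scaling (0.99) or spike-in scaling (0.91).

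In the Calvin cycle, 29 of 32 probes were not called in *Stpfld252*, 2 were repressed and 1 was induced, with a median of −0.24. A small subunit of ribulose bisphosphate carboxylase (cSTB34J1TH), the enzyme that fixes CO2, was the largest called decrease (−1.86, SE 0.14), from 10.75 and 11.13 to 8.95 and 9.21. In WT 26 of the 32 probes were repressed, and the response was higher in *Stpfld252* past the limits for 18 and lower for 0. The antenna list gave 20 higher and 0 lower by the same test, and tetrapyrrole synthesis, the route to chlorophyll, 11 higher and 1 lower of 23. All these probes had been called in 1 comparison or another by the authors on these arrays, WT included, so that high WT counts are partly a matter of choice. Within the tetrapyrrole list, drought repressed 7 and induced 2 probes in *Stpfld252* (4 induced without drought replicate 1 or with the processed signal), the strongest decrease being a chlorophyllase (MICRO.6304.C1, −3.17, SE 0.07), which removes the phytol tail of chlorophyll. In photorespiration 3 of 10 probes were induced and 3 repressed, and the P protein of glycine decarboxylase (MICRO.2381.C1) rose by 1.66 (SE 0.11).

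**Figure D4:**
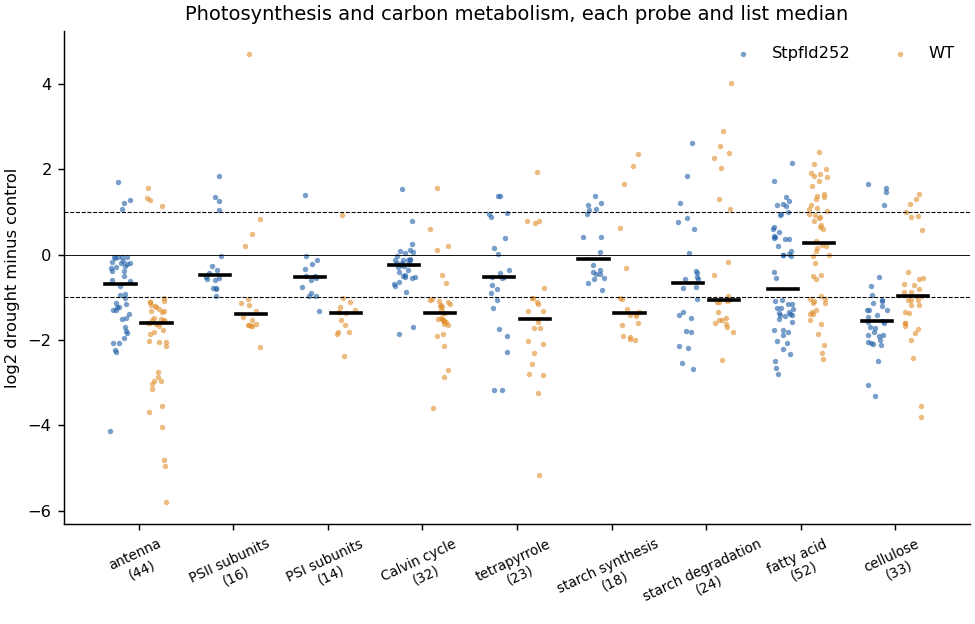
Log2 change (drought minus control, y axis) of each probe in 9 lists of photosynthesis and carbon metabolism (number of probes in brackets), in *Stpfld252* (blue) and WT (orange); thick bars are medians and dashed lines mark 2-fold. *Stpfld252* medians lie at −0.24 for the Calvin cycle and −0.10 for starch synthesis, and at −1.54 for cellulose synthesis.

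Starch and sucrose genes were called in both directions. Of 18 probes for starch synthesis drought induced 5 and repressed 0 in *Stpfld252* (median −0.10), and of 24 for starch degradation it induced 3 and repressed 10 (median −0.67). The induced count for starch synthesis lay between 2 and 5 under other offsets and scalings. Granule-bound starch synthase (GBSSI, MICRO.920.C2), which makes amylose, read 12.93 and 12.89 in the control and 13.26 and 13.39 under drought, a change of 0.41 (SE 0.11) that did not reach 2-fold. Its WT change was −1.97, and the difference of the responses was 2.39 (adjusted p = 1.7e-05 in limma's test). A beta-amylase (MICRO.13823.C2), which cuts maltose from starch, fell by 2.68 (SE 0.08). Of 8 probes for sucrose synthase, which splits sucrose, 4 were induced and 4 not called in *Stpfld252*, while all 8 were induced in WT and all 8 differences were lower in *Stpfld252*. The strongest of them, MICRO.16466.C1, rose from 10.10 and 9.96 to 12.17 and 12.20 (2.15, SE 0.08), against a WT change of 6.31. STMIM75TV, a beta-fructofuranosidase (invertase), fell by 3.68 (SE 0.11), and of 14 sugar transport probes 9 were repressed and 3 induced, among the former a hexose transporter similar to STP14 of *Arabidopsis* (MICRO.13918.C1, −3.77, SE 0.13).

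Nitrogen and amino acid genes included probes that moved in opposite directions in *Stpfld252* and WT. Asparagine synthetase (MICRO.3150.C2), which stores nitrogen in asparagine, fell in *Stpfld252* from 13.70 and 13.74 to 10.82 and 10.91 (−2.86, SE 0.07), while it rose by 6.34 in WT, a difference of −9.20 (adjusted p = 2.1e-08 in limma's test). The bifunctional lysine-ketoglutarate reductase/saccharopine dehydrogenase (LKR/SDH, MICRO.7729.C1), which breaks down lysine, fell from 13.15 and 13.09 to 10.46 and 10.35 (−2.72, SE 0.08) and rose by 2.99 in WT. A nitrite reductase probe (MICRO.4468.C1) moved the other way, from 8.29 and 8.33 to 9.58 and 9.96 (1.46, SE 0.13), against −4.13 in WT. The WT control arrays read 10.73 and 10.76 for asparagine synthetase, 11.85 and 11.87 for LKR/SDH and 10.11 and 10.35 for this nitrite reductase. At these probes the lines thus already differed in watered leaves. Of the 6 probes described as nitrate or nitrite reductases, drought induced 2 in *Stpfld252* and 4 were not called, with changes from −0.69 to 1.46, while WT repressed all 6 and all 6 differences were higher in *Stpfld252*. The probe of the primer pair named NR3 by the study (MICRO.8565.C1) is 1 of them, with −0.62 (SE 0.08), although the supplementary tables describe it as a nitrite reductase and the primer list as a nitrate reductase. Across all 74 amino acid synthesis probes 17 were induced and 21 repressed, and across 44 amino acid degradation probes 7 and 11. The strongest decrease in the latter was arginase 2 (bf_mxlfxxxx_0068d04.t3m.scf, −3.96, SE 0.10), which breaks down arginine. A glutamine synthetase probe (MICRO.8061.C1), similar to a cytosolic enzyme of tobacco that assimilates ammonia, fell by 2.39 (SE 0.09).

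Sulfur and flavonoid genes were called mostly as induced. Of 23 probes for sulfur assimilation and sulfate transport, 11 were induced and 0 repressed in *Stpfld252*, with a median of 0.78, and the response was higher than in WT for 10 and lower for 2. A sulfate transporter (MICRO.13351.C1) rose from 8.36 and 8.24 to 11.85 and 11.84 (3.54, SE 0.10), with a WT change of 4.05 that differed by less than 2-fold. Of 40 flavonoid probes 19 were induced and 4 repressed (median 0.69), and the response was higher than in WT for 11 and lower for 5. Flavonol synthase (MICRO.6121.C1) rose from 8.29 and 8.40 to 10.58 and 10.68 (2.29, SE 0.09), whereas a leucoanthocyanidin dioxygenase (STMCQ37TV), on the branch to anthocyanins, fell by 2.46 (SE 0.08). Isoprenoid synthesis gave 28 induced and 6 repressed of 52 probes (median 1.02). Beta-amyrin synthase (MICRO.11705.C1), a triterpene-forming enzyme, rose by 3.30 (SE 0.09), and 3-hydroxy-3-methylglutaryl coenzyme A reductase (TBSK03372FA12.t3m.scf), which controls the cytosolic route, fell by 2.61 (SE 0.15). Of 16 probes described as lipid transfer proteins, carriers of cutin and wax components, 11 were induced and 2 repressed (median 1.70). One of them, MICRO.2125.C1, picked out after its values were seen, was not well above background on either control array and read 9.63 and 9.70 under drought, at least 47.4-fold higher than the level of the negative controls allows for the control (adjusted p = 1.1e-06 in limma's test). Among phenylpropanoid probes 7 were induced and 12 repressed of 37, with the largest increase at a cinnamoyl-CoA reductase (MICRO.4563.C1, 3.79, SE 0.12).

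Cell wall lists held more repressed than induced probes. Of 33 probes for cellulose synthesis drought repressed 26 and induced 4 (median −1.54), of 31 for wall proteins 25 and 0 (median −1.65), of 38 for pectin esterases 32 and 0 (median −1.59), and of 98 for wall degradation 66 and 7 (median −1.42). Of 29 probes for wall modification 14 were repressed, 8 induced and 7 not called (median −0.95). All 16 arabinogalactan proteins, surface glycoproteins of growing cells, had a negative change, from −4.89 to −0.25, with 14 of them called. XTH probes did not follow 1 direction. Of 23 such probes 18 were repressed and 5 induced, and XTH6 (MICRO.3403.C4) rose from 7.68 and 7.54 to 11.32 and 11.36 (3.73, SE 0.11) while the 4 XTH probes named above were strongly repressed. A cellulose synthase-like protein D4 (MICRO.2667.C1) went from 9.95 and 9.98 to 7.60 and 7.37 (−2.48, SE 0.09), with a WT change of −0.40 and a difference of −2.08 (adjusted p = 1.6e-05 in limma's test). Its WT arrays read 8.23 and 8.31 in the control and 7.88 and 7.85 under drought. Most of this difference thus lay in watered leaves. An expansin-like protein (MICRO.16868.C1), of a family that loosens walls, went from 10.52 and 10.85 to 7.21 and 6.97 (−3.59, SE 0.12), against −0.83 in WT. Over the cellulose list, the response was lower in *Stpfld252* past the limits for 11 probes and higher for 2. Of 52 probes for fatty acid synthesis and elongation 26 were repressed and 7 induced in *Stpfld252* (median −0.80), where WT repressed 15 and induced 17, and the difference was lower for 19 and higher for 4. A beta-ketoacyl-CoA synthase (bf_mxflxxxx_0039g06.t3m.scf), which lengthens fatty acids, fell by 2.79 (SE 0.11).

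Auxin, aquaporin and receptor kinase probes were called mostly as repressed, and gibberellin and ethylene probes in both directions. Of 74 auxin probes 43 were repressed and 4 induced (median −1.24), including a small auxin-up RNA-like protein (MICRO.16631.C1, −3.83, SE 0.10), a short-lived early auxin response. The auxin-repressed protein MICRO.13674.C1 went the other way, rising by 1.48 (SE 0.10). Of 16 major intrinsic proteins, the family of aquaporins, 12 were repressed and 0 induced (median −1.29), among them a tonoplast-type channel (MICRO.6021.C2), which went from 7.02 and 6.96 to 4.69 and 4.57 (−2.35, SE 0.09). Of 117 receptor kinases 73 were repressed and 12 induced (median −1.24), and of 219 biotic stress probes 108 and 28 (median −0.96), where a major latex-like protein (MICRO.15700.C1) gave the largest increase (4.10, SE 0.10). Gibberellin probes numbered 5 induced and 10 repressed of 28, and gibberellin 2-oxidase 1 (MICRO.7232.C1), which inactivates gibberellins, rose by 2.77 (SE 0.08). Of 67 ethylene probes 18 were induced and 23 repressed. The ethylene-forming enzyme ACO1 (MICRO.2939.C2) fell from 16.51 and 16.50 to 15.31 and 15.33 (−1.18, SE 0.07), close to the 2-fold limit, which it no longer passed with the scanner's processed signal (−0.95), while E8 (MICRO.13070.C1), a ripening protein of tomato related to that enzyme, rose by 2.75 (SE 0.10). Of 13 probes for core and linker histones 10 were repressed and 2 induced (median −2.02).

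Redox genes were called in both directions, glutaredoxins included. Of 57 redox probes 19 were induced and 18 repressed. A cytosolic ascorbate peroxidase (MICRO.7305.C1), which removes hydrogen peroxide, rose from 5.66 and 5.52 to 9.09 and 9.29 (3.60, SE 0.10). Of 16 thioredoxins, disulfide reductases that chloroplast ferredoxin can feed, 3 were induced and 9 repressed (median −1.06). Of 11 glutaredoxins, which use glutathione for the same kind of reaction, 5 were induced and 4 repressed (median 0.88), and 5 were called in opposite directions in *Stpfld252* and WT. The glutaredoxin-like probe bf_mxlfxxxx_0015a10.t3m.scf went from 6.86 and 6.77 to 8.81 and 8.93 (2.06, SE 0.08) and fell by 2.23 in WT, a difference of 4.29 (adjusted p = 5.6e-07 in limma's test). A similar probe, MICRO.15924.C1, rose by 1.95 (SE 0.11) and fell by 2.09 in WT, a difference of 4.04 (adjusted p = 1.8e-06). In watered WT leaves bf_mxlfxxxx_0015a10.t3m.scf read 9.29 and 9.25. MICRO.15924.C1 read 9.63 and 9.42 in watered WT leaves and 7.18 and 7.39 in watered *Stpfld252* leaves. Both probes thus already differed between the lines in watered leaves. Of 13 glutathione S-transferases, which conjugate glutathione to toxic compounds, 8 were induced and 2 repressed (median 1.30).

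Among transcription factors, calls went both ways in each family. Of 21 NAC factors 3 were induced and 5 repressed, with NAC2 (bf_mxlfxxxx_0059g04.t3m.scf) up by 3.08 (SE 0.08) and MICRO.1484.C1 changed by −2.38 (SE 0.07). Of 20 WRKY factors, a family tied to wounding and defence, 8 were induced and 7 repressed in *Stpfld252*, where WT induced 13 and repressed 3, and the response was lower for 9 and higher for 1. The wound-induced WIZZ (MICRO.11665.C1) went from 11.37 and 11.41 to 7.71 and 7.32 (−3.88, SE 0.13), while its WT change was −0.50 and the difference −3.38 (adjusted p = 8.2e-06 in limma's test). Its WT arrays read 8.46 and 8.31 in the control and 7.85 and 7.91 under drought. The lines thus differed mainly in watered leaves. STMHR69TV, a DNA-binding protein in the same list, rose by 1.82 (SE 0.13). Of 21 homeobox probes 5 were induced and 10 repressed, and an HD-ZIP protein (MICRO.5596.C2) fell by 3.07 (SE 0.09), opposite in direction to ATHB7, which belongs to the same superfamily.

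Proteasome genes barely moved. The 59 proteasome probes gave 0 induced and 1 repressed probe, with a median of 0.20 and values from −1.93 to 0.83. They had been called by the study, which reported proteasome genes as over-represented among those higher in *Stpfld252* than in WT when watered. Such a choice shares the *Stpfld252* control arrays with this comparison. The regulatory subunit RPN9b (MICRO.767.C1) read 13.39 and 13.38 in the control and 13.49 and 13.44 under drought, a change of 0.08 (SE 0.08, adjusted p = 0.40 in limma's test). PSA2B (MICRO.1887.C4), a core subunit, changed by 0.15 (SE 0.07, adjusted p = 0.11).

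The difference of the drought responses of the lines, tested in the same model, shows which of these changes were not shared with WT. Such a difference can lie in the watered leaves, in the droughted leaves or in both. In 739 of the 4847 called probes the *Stpfld252* response was the smaller of the 2 lines' past the limits, and in 993 it was larger or opposite. This split covers only probes called in *Stpfld252* and leaves out those called in WT alone. It therefore cannot show whether smaller or larger responses were the more common. In WT itself 18.2% of all tested probes were called, 8.2% as induced and 10% as repressed. Among the 2033 induced probes 1190 were also induced in WT, 795 were not called there and 48 were repressed there. Of those 795 probes, 286 passed the test of the difference, so that for the rest a different response was not shown. Among the 2814 repressed probes 1736 were repressed in WT as well, 1017 were not called there, of which 479 passed the test, and 61 were induced there. The raw brightness of the slides did not shift alike in the lines, since median signals in WT were 204 and 223.5 under drought and 199 and 203.5 in the control, and the part of this in the difference was not tested.

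The 48 and 61 probes called in opposite directions include a few of known function besides those above. MICRO.10912.C1, a leucine-rich repeat protein, rose by 2.23 (SE 0.16) and fell by 1.09 in WT, and bf_ivrootxx_0052D10.t3m.scf, a probable oxidoreductase with the same description as MICRO.295.C2, rose from 5.72 and 5.56 to 9.04 and 9.02 (3.39, SE 0.09) and fell at least 2.87-fold in WT, where neither drought array was well above background. A 1,3-beta-glucanase (MICRO.2286.C15), an enzyme of callose turnover and defence, rose by 1.75 (SE 0.09) against −1.59, and an IDS4-like protein (MICRO.6129.C1) by 1.73 (SE 0.08) against −1.28. In the other direction, UDP-glucose 6-dehydrogenase (bf_mxflxxxx_0025b09.t3m.scf), which makes precursors of pectin and hemicellulose, went from 9.34 and 9.34 to 6.23 and 6.02 (−3.21, SE 0.10) and rose by 1.41 in WT. Its WT control arrays read 6.30 and 6.17, so that the lines already differed in watered leaves. A tumor-related protein (MICRO.14425.C1) fell by 2.73 (SE 0.12) against 2.14, and a putative microtubule-binding protein (MICRO.839.C8) changed by −2.45 (SE 0.18) against 1.97. Its drought arrays, at 5.58 and 5.04, lay further apart than those of the other probes in this group.

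**Figure D5:**
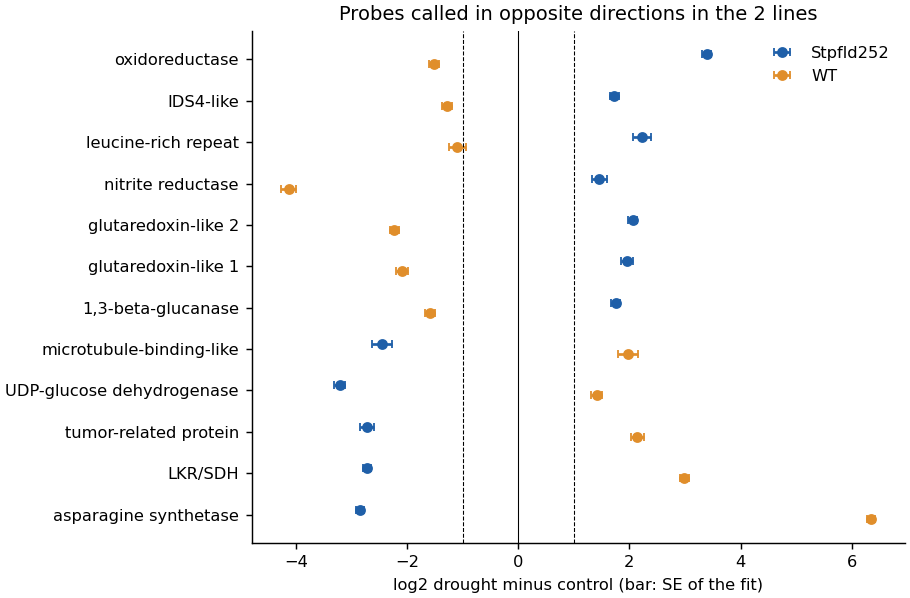
Log2 change (drought minus control, x axis) with its SE in *Stpfld252* (blue) and WT (orange) for 12 described probes called in opposite directions; dashed lines mark 2-fold. Asparagine synthetase lies furthest apart, at −2.86 in *Stpfld252* and 6.34 in WT, and the glutaredoxin-like probes stand at 2.06 and 1.95 against −2.23 and −2.09.

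Contigs with several probes allow the calls to be read against each other. Of 3430 contig numbers with at least 2 tested probes, 340 had at least 1 induced probe, and in 137 of these 2 or more were induced, while 16 held an induced and a repressed probe. Among 473 contig numbers with at least 1 repressed probe, 196 had 2 or more. All probes of a contig number were induced in 90 cases and repressed in 141. Probes of 1 number can carry different descriptions, as for the zinc finger probe MICRO.6392.C2 and the small heat shock protein probe MICRO.6392.C4. Calls depended on brightness, with 2.68% induced and 4.23% repressed in the dimmest of 4 equal bins of probes, 7.6% and 10.4% in the next bin up, 6.48% and 9.07% in the one after it, and 5.67% and 7.38% in the brightest.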

How the data were processed

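Leaf RNA of 8 pools (*Stpfld252* and WT, control and drought, 2 each) had been hybridized to 1-colour 4 x 44k potato arrays. Intensity values, deposited as scanner output of Feature Extraction 11.5.1.1 per the file headers, were the median spot and local background intensities. The authors also deposited a table of log2 values normalized with limma (normexp and quantile), which was used as an alternative. From the intensities, normexp correction (offset 0), quantile normalization and log2 transformation were run anew with limma 3.58.1 in R 4.3.3. The authors' table instead matches an offset of 16. With that table, 1697 probes were called as induced and 2400 as repressed by drought in *Stpfld252*. Probes were tested (36250 of 42034) if their signal passed a background limit on both arrays of at least 1 group, the limit of an array being its 95th percentile over negative control spots times 1.1. A single linear model with a mean per group gave the drought change of *Stpfld252*, that of WT, and their difference. A call required a Benjamini-Hochberg adjusted p under 0.05 and a change over 2-fold. A bound ("at least") sets the brighter group's mean against the dimmer group's mean of the lowest level allowed for it: per array, the higher of that percentile, without the factor, and the probe's own signal.

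The number of arrays, 2 per group, limits the precision. The study states that pools came from independent experiments, and p-values measure the spread between these pools only. Gene lists and named probes were chosen with earlier results of these data known. Named probes were the 10 with primers, the 10 largest described changes in each direction among probes well above background on all 4 *Stpfld252* arrays with groups that did not overlap, under the same conditions the largest called increase and decrease of each list, and the 5 largest changes in each direction called opposite in WT. Not all that this rule selects are discussed. Families and some lists (among them ABA synthesis, ABA signalling, photosystem subunits, arabinogalactan proteins, glutaredoxins and thioredoxins) were added after values were seen. Lists from the drought table, of which 1785 rows were read, are incomplete. The fit was tested on simulated data. Alternatives changed the background offset, scaling, filter, model and replicates. The *fld* transgene was not analysed here.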

Additional observations from a re-analysis of the deposited data

Results flagged for a closer look

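Of the 85 probes followed here, 51 had a drought response in *Stpfld252* that differed from that in WT by over 2-fold at an adjusted p under 0.05 in limma's test of the difference. Over all tested probes the share was 11.8%. The 85 were chosen in part for large changes in *Stpfld252*, and some for a difference past these limits. The count of 51 is therefore not a rate at which the lines differ. Values are *Stpfld252* minus WT on the log2 scale. Higher in *Stpfld252* were, among photosynthesis and carbon genes, Fd1 (1.17), psbY (1.01), GBSSI (2.39), the small subunit of ribulose bisphosphate carboxylase (1.73), galactinol synthase (1.67), the trehalose-6-phosphate synthase-like probe (1.06) and the STP14-like hexose transporter (1.27). Among nitrogen and redox genes they were the nitrite reductases MICRO.4468.C1 (5.59) and MICRO.8565.C1 (1.24), the glutaredoxin-like probes (4.29 and 4.04) and the oxidoreductases (4.91 and 1.41). The others were the leucine-rich repeat protein MICRO.10912.C1 (3.33), the 1,3-beta-glucanase (3.34), the IDS4-like protein (3.01), the cinnamoyl-CoA reductase (1.13), ACO1 (1.04), the tonoplast channel (1.58) and a BURP-domain protein listed under drought and salt stress (MICRO.432.C1, 1.48).

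Lower in *Stpfld252*, among stress and ABA genes, were ATHB7 (−3.31), the phosphatase 2C (−5.11), LE25 (−7.13), the LEA protein MICRO.1825.C4 (−1.66), NCED (−1.04), the small heat shock protein (−1.79), the HSFA9-like factor (−3.64), MIPS (−1.64), ascorbate peroxidase (−1.18) and the protease inhibitor (−1.34). In nitrogen and sugar metabolism they were asparagine synthetase (−9.20), LKR/SDH (−5.71), sucrose synthase (−4.15), the seed imbibition protein (−3.30), an amino acid permease (STMHE15TH, −1.18) and the MtN3-like probe (−1.72). Among wall, lipid and growth genes they were BRU1-like XTH (−2.17), cSTB47C24TH (−2.10), UDP-glucose 6-dehydrogenase (−4.63), the cellulose synthase-like protein (−2.08), the expansin-like protein (−2.76), the beta-ketoacyl-CoA synthase (−1.75), the auxin-repressed protein (−3.89) and gibberellin 2-oxidase 1 (−2.00). The remainder were the major latex-like protein (−3.72), the isoprenylated protein MICRO.16759.C1 (−2.34), the tumor-related protein (−4.87), the microtubule-binding protein (−4.43), WIZZ (−3.38), the HD-ZIP protein MICRO.5596.C2 (−1.46) and the leucine-rich repeat protein MICRO.4697.C1 (−1.26). 
Calls of the difference were lost under other processing for 14 of these probes. With median or spike-in scaling they were Fd1 (0.99 and 0.91), psbY (0.79 and 0.72, and 0.89 with loess), ACO1 (0.94 and 0.86), the trehalose-6-phosphate synthase-like probe (0.90 and 0.83) and cSTB47C24TH (−1.29 and −1.36), and with spike-in scaling alone MICRO.8565.C1 (1.03, adjusted p = 0.084 in limma's test). With an offset of 50 they were the cinnamoyl-CoA reductase (0.66), the protease inhibitor (−0.84), the BURP-domain protein (0.88), the tonoplast channel (0.80) and the hexose transporter (0.86), and with the processed signal ascorbate peroxidase (−0.83). The cinnamoyl-CoA reductase also lost its call with an offset of 16 and with the authors' log2 values (0.92 in both), and with spike-in scaling (0.95). Leaving out 1 array took psbY to 0.93 (*Stpfld252* drought replicate 1) or 0.99 (WT drought replicate 1), the cinnamoyl-CoA reductase to 0.97 (WT drought replicate 2) and NCED to −0.995 (*Stpfld252* drought replicate 2). MICRO.4697.C1 lost its call under every scaling tried in place of quantile normalization and changed sign under median scaling and with the processed signal.

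Some WT levels were not well above background, so that their differences are not exact. Neither WT drought array was for the tonoplast channel, MICRO.4697.C1 and the oxidoreductase bf_ivrootxx_0052D10.t3m.scf, and neither WT control array was for the protease inhibitor. With those WT levels raised to at least that of the negative controls, the differences were 1.09, −1.68, 4.91 and −1.30. For LE25, gibberellin 2-oxidase 1, the HSFA9-like factor and the tumor-related protein, 1 of the 2 WT control arrays was not.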

How the results depend on the processing

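No probe called in *Stpfld252* was called in the opposite direction under any alternative. With a normexp offset of 50, induced probes numbered 1335, responses smaller than in WT 466, and larger or opposite ones 629. With the scanner's processed signal, repressed probes numbered 4382 and larger or opposite responses 1597; the cause was not tested. Leaving out 1 array at a time gave 2028 to 2121 induced, 2811 to 2905 repressed, 716 to 756 smaller and 971 to 1080 larger or opposite responses. Other scalings gave 1802 to 3026 induced and 2433 to 3085 repressed probes. Same-numbered arrays correlated between −0.15 and 0.16 in their deviations, so the number was not taken as a pairing; a replicate block gave 2033 induced and 2816 repressed probes, and the crossed pairing of WT drought, added after seeing the data, 2033 and 2814. The difference for MICRO.4697.C1 (−1.26) was 0.35 with the processed signal and 0.016 with median scaling, and that of cSTB47C24TH lost its call with median scaling (−1.29). Among the named probes, 14 differences lost and 7 gained a call under at least 1 alternative. The median change changed sign with the scaling for LEA proteins, drought and salt stress, raffinose and amino acid transport, and for gibberellin it reached 0.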

Other observations

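Several gene groups not described above changed in both directions in *Stpfld252* leaves. Of 25 subtilases, secreted proteases, drought repressed 13 and induced 3 (median −1.14), and of 32 GDSL-motif lipases 18 and 10 (median −1.35). Glycolysis gave 8 induced and 1 repressed of 39 probes (median −0.08), and protein synthesis 15 and 23 of 64 (median −0.10). Of 12 probes for wax synthesis, which waterproofs the leaf surface, 4 were induced and 1 was repressed in *Stpfld252* (median 0.31), where 10 were induced in WT, and the response was lower in *Stpfld252* past the limits for 9 and higher for 0. Of 8 myo-inositol probes 4 were induced and 2 repressed (median 1.08). Of 19 probes listed as storage proteins 3 were induced and 6 repressed. These groups carry the same selection of probes as the lists above, and the median change of all tested probes was 0.05.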
